A study of Mus musculus with 6 samples.

Results

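The genes described here encode potassium, sodium and chloride channels, transient receptor potential (TRP) channels and Piezo channels, with the accessory subunits that carry the same name stems. They were chosen by symbol, from the stems Kcn, Scn, Clcn, Ano, Best, Trpc, Trpm, Trpv and Piezo. No gene's value entered the match, but the choice was made with earlier results of these data known. Of 24411 gene symbols, 156 matched, and 64 of these were kept because they had 10 or more counts in at least 3 libraries. A further 43 had no count in any library and 49 had counts but too few to be kept. The cells were C2C12, an immortalised line of mouse myoblasts labelled wild type, which fuse into multinucleated myotubes in low serum. The treated cultures were differentiated myotubes given 10 µM Sardomozide for 72 h, and the controls were myotubes given the solvent DMSO for the same time, with 3 libraries of each. Sardomozide inhibits S-adenosylmethionine decarboxylase, the product of Amd1, which supplies the aminopropyl groups for spermidine and spermine, and the comparison addresses what its inhibition does to myotube transcripts. All 6 libraries come from this 1 line, and no label states that replicate libraries stem from different cultures. The p-values therefore rest on a spread between libraries that may be technical.

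Channels set the membrane potential of a muscle fibre and carry its action potential. Voltage-gated sodium channels give the upstroke, voltage-gated potassium channels the return to rest, and inward rectifier potassium channels, which conduct better inward than outward, hold the resting potential. In adult muscle a large chloride conductance through the Clcn1 product damps repeated firing. Inward rectification of the Kcnj family arises because intracellular spermine, spermidine and magnesium plug the pore from inside when the cell depolarises. The polyamines act there on the protein, whereas the values below are transcript counts and say nothing about current through the channels.

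Levels of the 64 kept genes spanned a wide range. They are compared as CPM per kb, that is, counts scaled to CPM by library size and divided by kilobases of exon in the GENCODE M21 annotation. Among the genes named here Piezo1, a stretch-gated cation channel, had the highest level, averaging 22.6 ± 0.364 CPM per kb in Sardomozide libraries and 24.8 ± 0.17 in DMSO libraries (SD, n = 3 each).

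Next came Trpc4ap, which matched by name but encodes an adaptor of a ubiquitin ligase and no channel, at 20.9 ± 0.376 CPM per kb with Sardomozide and 21.4 ± 0.138 with DMSO. Scn4a, the sodium channel of adult skeletal muscle, Kcnj12, an inward rectifier, and Ano6, a lipid scramblase, followed, at 16.3 ± 0.672, 16.7 ± 0.466 and 15.1 ± 0.00963 CPM per kb in that order with Sardomozide and 18.0 ± 0.458, 15.6 ± 1.3 and 17.0 ± 0.618 with DMSO. With Sardomozide the ranges of mean ± SD overlapped for Kcnj12 and Scn4a. With DMSO they overlapped for Scn4a and Ano6 and for Ano6 and Kcnj12. Over all 64 kept genes, which include higher ones not named here, the 5 highest held 41.3% of the summed CPM per kb. The 10 highest held 62.3%. At the other end 27 of the 64 genes had under 1 CPM per kb.

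**Figure D1:**
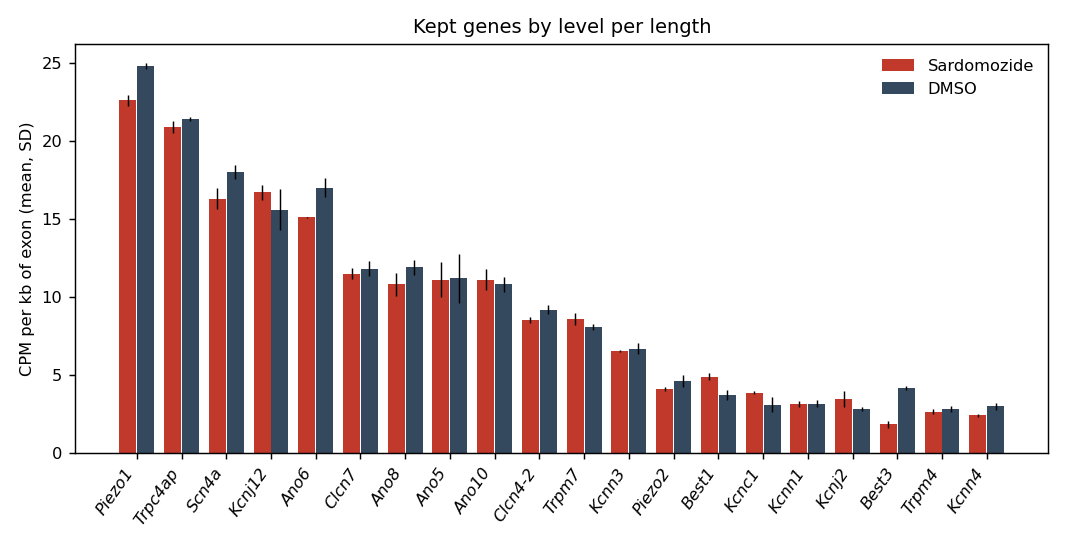
Mean level in CPM per kb of exon (vertical axis) of 20 abundant kept genes, with Sardomozide bars left of DMSO bars and error bars of 1 SD (n = 3 each). Piezo1 is at 22.6 with Sardomozide and 24.8 with DMSO, whereas Kcnj12 is at 16.7 with Sardomozide and 15.6 with DMSO, with error bars that overlap.

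Myotubes given Sardomozide had more transcript of Kcnc1, Kcnk13 and Best1, among others, and less of Best3, Scn3b, Kcnmb1, Scn7a, Kcnn4, Ano6, Scn4a and Piezo1. Of the 63 kept genes that entered the test, 5 rose, 9 fell and 49 did not pass (edgeR quasi-likelihood test, adjusted p under 0.05). Expressed as a share, 7.94% of the tested channel genes rose and 14.3% fell, beside 7.88% and 8.45% of all 13076 genes tested, and 22.2% were called in either direction, beside 16.3% of all genes. The share that rose was thus at the background. The set was chosen with earlier results of these data known, so nothing particular to channels is read from these shares. Counts by channel class below rest on few genes each and stand beside the same shares of all genes. No class was tested. The median log2 fold change of the tested channel genes was −0.09 (−0.00 over all genes). The groups did not overlap for 26 of the 63 genes (41.3%, beside 33.5% of all genes), 13 of them called. Of the called genes, 5 changed by at least 1.5-fold, 2 upward, Kcnk13 among them, and 3 downward (Best3, Scn3b and Kcnmb1). Kcnmb1 had been kept only through the DMSO libraries, where it was high, so its inclusion favoured a fall. Of the 63 genes, 33 had a log2 fold change within 0.2 of 0. RNA was taken from whole cultures, so fewer cells of a kind and less RNA per cell cannot be told apart.

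Most of the calls depended on which libraries were included. Of the 14 called genes, 5 stayed called whichever library was left out, Kcnk13 and Best3 among them, and the other 9 lost their call without at least 1 library. Without DMSO replicate 1, 3 genes rose and 3 fell, and without DMSO replicate 3, 4 fell.

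**Figure D2:**
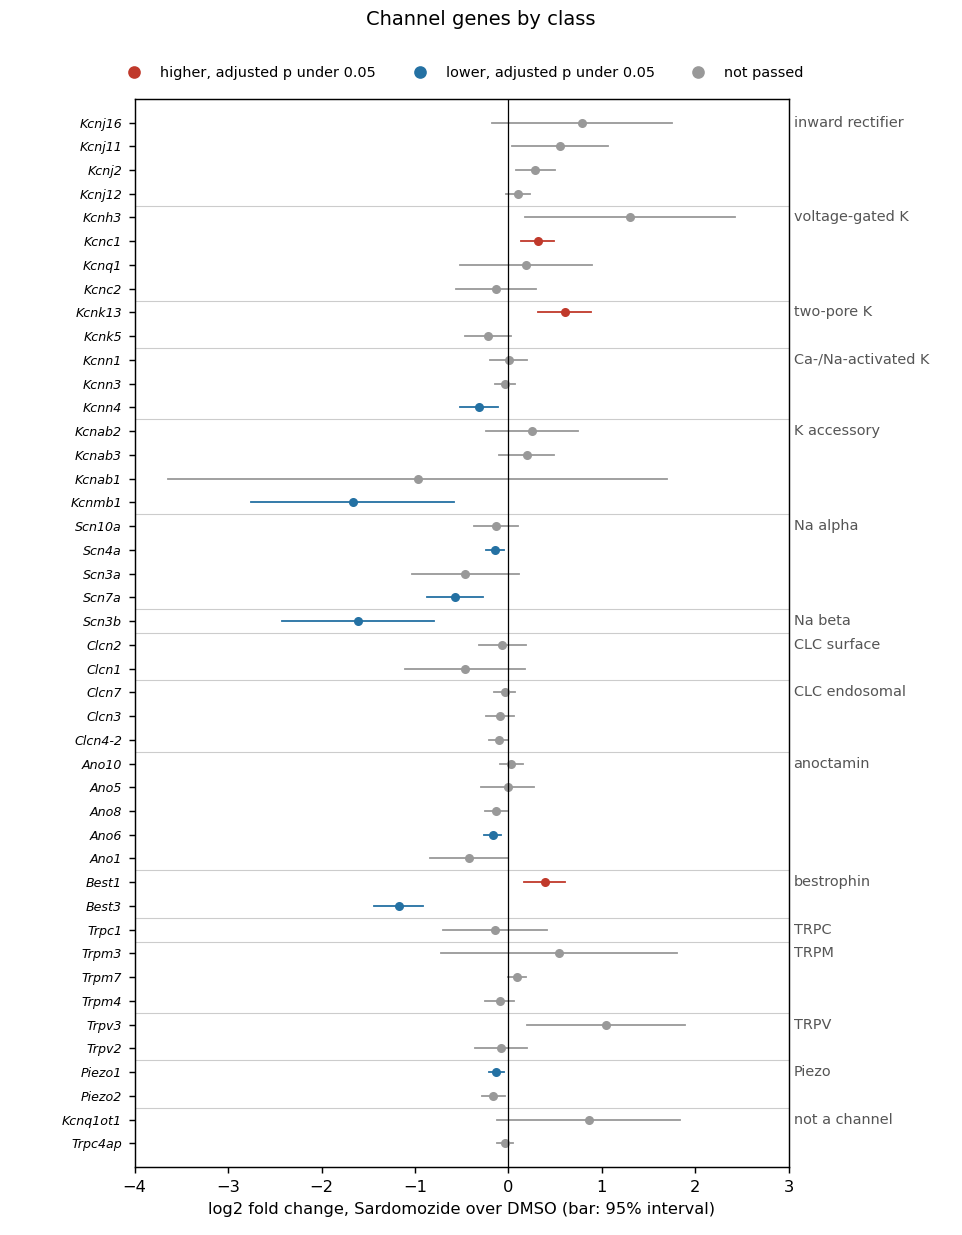
Log2 fold change, Sardomozide over DMSO (horizontal axis; points with 95% intervals from the edgeR fit, n = 3 each), of the tested genes named in the text, grouped by channel class. The 4 inward rectifier genes lie right of 0 and none passed, and Scn4a and Scn7a lie left of 0 and were called.

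Among inward rectifiers, 4 of 15 genes were kept and 0 of 4 passed the test, beside 16.3% of all genes tested. The Kcnj12 transcript was present at 45.7, 44.7 and 47.3 CPM in the Sardomozide libraries and 40.6, 40.8 and 46.9 CPM in the DMSO libraries. The groups overlapped, with DMSO replicate 3 inside the Sardomozide range (log2 fold change 0.10 ± 0.064 SE, 95% interval −0.03 to 0.23, adjusted p = 0.315). Its product and that of Kcnj2 are strong inward rectifiers, the kind most sensitive to polyamine block.

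Kcnj2, mutated in the periodic paralysis of Andersen-Tawil syndrome and known in human myoblasts for the hyperpolarisation that precedes fusion, had 17.9, 16.5 and 21.8 CPM with Sardomozide and 15.4, 14.7 and 15.9 CPM with DMSO. The groups did not overlap, although Sardomozide replicate 2 lay close to DMSO replicate 3. The estimate was 22.0% higher with Sardomozide and did not pass (log2 fold change 0.29 ± 0.1, 95% interval 0.08 to 0.50, adjusted p = 0.0567). It passed without Sardomozide replicate 2 (adjusted p = 0.0189) and with no filter on low counts (0.0253).

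Kcnj11, which encodes the pore of the ATP-sensitive potassium channel, had 2.61, 2.25 and 3.11 CPM with Sardomozide against 1.30, 2.12 and 1.95 CPM with DMSO. No Sardomozide library was as low as the highest DMSO library, and the difference did not pass (log2 fold change 0.56 ± 0.25, adjusted p = 0.133). Kcnj16, whose product joins other inward rectifiers and gives little current alone, had 17, 31 and 20 counts with Sardomozide and 6, 14 and 14 with DMSO. It is 1 of 2 genes that reached 10 counts in 3 libraries only through the Sardomozide libraries, so its kept status favours a difference (log2 fold change 0.79 ± 0.46, adjusted p = 0.272). All 4 estimates were above 0, with a median log2 fold change of 0.42 (−0.00 over all genes). Kcnj16, whose inclusion favoured a rise, is among them. None of the 4 passed, so no rise of the family is read from these estimates.

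Kcnj12 made up most of the family: it held 79.5 ± 1.79% of the summed CPM per kb of the 4 kept genes with Sardomozide and 82.1 ± 0.641% with DMSO. Kcnj2 held 16.3 ± 1.56% with Sardomozide and 14.9 ± 0.782% with DMSO. The Kcnj12 share did not overlap between the groups, at 77.4% to 80.8% with Sardomozide against 81.4% to 82.7% with DMSO, and the Kcnj2 share did, at 15% to 18% with Sardomozide against 14.1% to 15.7% with DMSO. Shares of 1 sum are not independent of each other, and these differences were not tested.

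Kcnj4, another strong rectifier gene, fell just outside the count filter. It had 10, 17 and 8 counts in the Sardomozide libraries and 0, 0 and 1 in the DMSO libraries. Summed, these are 35 counts of 101986497 with Sardomozide and 1 of 87396478 with DMSO. The ratio is 30, with an exact 95% interval of 5.04 to 1218. That interval covers counting error only and leaves out the spread between libraries. Of the genes outside the filter only Kcnj4 was given a ratio, with its counts known, so the interval is not read as a test. Also just outside were Kcng2 (7, 23 and 9 counts with Sardomozide, 3, 11 and 4 with DMSO) and Kcnip3 (11, 6 and 9 with Sardomozide, 9, 5 and 11 with DMSO). Just inside lay Kcnk6 (20, 6 and 5 with Sardomozide, 5, 10 and 16 with DMSO), the 1 kept gene that edgeR's own filter left untested. The other 10 inward rectifier genes had at most 5 counts in any library, 4 of them 0 throughout, among these Kcnj8, the other pore gene of ATP-sensitive channels.

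The start regions of Kcnj12, Kcnj2 and Kcnj4 are shown because these encode the rectifiers most sensitive to polyamines and were the inward rectifier genes at the top of the family by level or by change in counts. Each runs from 250 bases before to 50 bases after the RefSeq start on GRCm38.p6 and is written in the direction of the gene. Kcnj2 lies at chr11:111065914-111066213 on the plus strand, Kcnj12 at chr11:61065554-61065853 on the plus strand and Kcnj4 at chr15:79505192-79505491 on the minus strand. The Kcnj12 window lies inside the GENCODE M21 gene used for its length, which runs from 61022564 to 61071131. It may therefore not be the start of the transcript counted here. Capitals mark 2 E-box forms bound by myogenic factors, CAGCTG and CAGGTG, the second searched on both strands and the first its own reverse complement.
Kcnj2: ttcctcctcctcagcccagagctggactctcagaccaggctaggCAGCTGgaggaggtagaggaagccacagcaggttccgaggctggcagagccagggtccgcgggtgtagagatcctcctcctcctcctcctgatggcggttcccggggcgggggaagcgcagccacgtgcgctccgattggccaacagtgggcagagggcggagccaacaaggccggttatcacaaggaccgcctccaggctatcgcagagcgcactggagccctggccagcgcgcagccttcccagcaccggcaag
Kcnj12: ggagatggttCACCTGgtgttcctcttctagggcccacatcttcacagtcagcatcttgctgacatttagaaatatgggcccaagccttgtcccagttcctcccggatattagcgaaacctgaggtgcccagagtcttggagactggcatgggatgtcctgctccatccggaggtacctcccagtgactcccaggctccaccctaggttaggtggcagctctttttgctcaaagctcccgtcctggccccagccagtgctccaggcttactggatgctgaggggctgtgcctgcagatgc
Kcnj4: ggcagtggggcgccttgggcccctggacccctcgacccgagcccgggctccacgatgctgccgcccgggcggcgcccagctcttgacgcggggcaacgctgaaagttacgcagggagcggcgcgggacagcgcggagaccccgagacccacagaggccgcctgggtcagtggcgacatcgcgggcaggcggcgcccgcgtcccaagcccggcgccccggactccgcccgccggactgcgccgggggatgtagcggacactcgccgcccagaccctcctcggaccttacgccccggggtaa
Kcnj2 holds 1 CAGCTG, Kcnj12 holds 1 CAGGTG read on the other strand, and Kcnj4 holds neither in this window. Over all 32851 RefSeq windows of this length, 16.3% hold CAGCTG and 20.2% hold CAGGTG. Windows were found for 45 of the 64 kept genes, and of their 65 windows 19 (29.2%) hold the first form and 20 (30.8%) the second. These are letter matches and do not show binding.

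**Figure D3:**
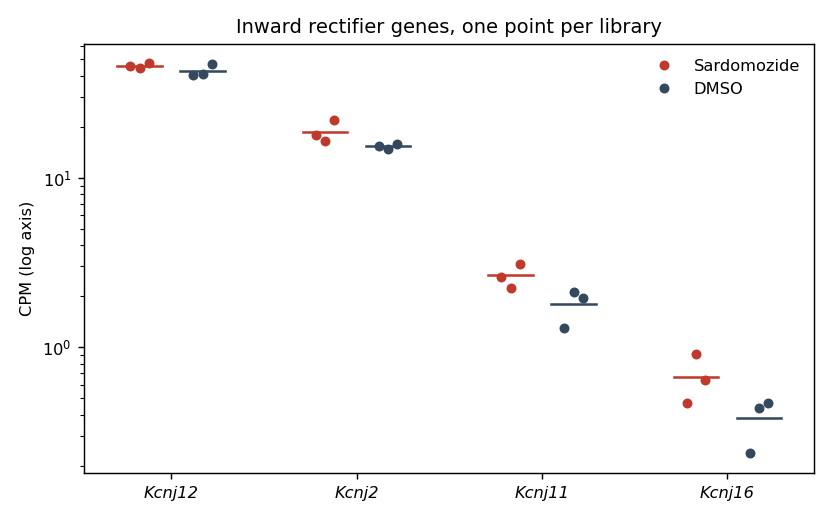
CPM on a log axis of the 4 kept inward rectifier genes, with Sardomozide libraries left of DMSO libraries, 1 point per library and a bar at each group's mean. Kcnj2 at 16.5 to 21.8 CPM with Sardomozide and 14.7 to 15.9 with DMSO separates by less than the spread of the Sardomozide points.

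Of 12 kept voltage-gated potassium channel genes, 2 rose, 0 fell and 10 did not pass (median log2 fold change 0.02). Of all genes tested, 7.88% rose and 8.45% fell. Kcnc1, which encodes a fast voltage-gated channel of the kind that lets neurons fire rapidly, had 35.6, 37.1 and 36.8 CPM with Sardomozide and 24.8, 29.7 and 33.5 CPM with DMSO. The DMSO libraries were spread more widely than the Sardomozide libraries, and the groups did not overlap (log2 fold change 0.31 ± 0.085, adjusted p = 0.0173). The call was lost without Sardomozide replicate 3 or DMSO replicate 1 or 2 (adjusted p = 0.055, 0.0921 and 0.0536). Its relative Kcnc2 overlapped between the groups (log2 fold change −0.14 ± 0.2, adjusted p = 0.709).

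Kcnh3 had the largest estimate of the class on few reads, with 17, 22 and 16 counts with Sardomozide and 6, 10 and 3 with DMSO. It did not pass (log2 fold change 1.30 ± 0.54, adjusted p = 0.107), and it too was kept only through the Sardomozide libraries.

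Two-pore potassium channels carry background leak current. Of the 4 tested genes, Kcnk13 rose, to 9.35, 10.3 and 7.62 CPM with Sardomozide against 5.94, 5.88 and 6.17 CPM with DMSO. The DMSO libraries lay close together and all Sardomozide libraries above them (log2 fold change 0.60 ± 0.13, adjusted p = 0.00365). Kcnk5, the next in level, did not overlap between the groups in the other direction but did not pass (7.92, 7.33 and 7.30 CPM with Sardomozide, 8.66, 8.31 and 9.29 CPM with DMSO, adjusted p = 0.228).

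Among channels opened by intracellular calcium or sodium, Kcnn4, an intermediate-conductance channel known from red cells and lymphocytes, fell and the other 3 tested genes did not pass. It had 12.4, 12.8 and 11.7 CPM with Sardomozide and 16.2, 13.9 and 15.8 CPM with DMSO, without overlap (log2 fold change −0.31 ± 0.098, adjusted p = 0.0322). That call was lost without Sardomozide replicate 1 or 3 or DMSO replicate 1 or 3 (adjusted p = 0.0565, 0.0991, 0.137 and 0.115). Kcnn3, a small-conductance channel that embryonic and denervated muscle make, was the most abundant, at 68.1, 69.0 and 67.8 CPM with Sardomozide and 67.1, 73.8 and 68.8 CPM with DMSO. Its groups overlapped (log2 fold change −0.03 ± 0.051, 95% interval −0.14 to 0.07), as did those of its relative Kcnn1 (0.00 ± 0.095).

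Of 5 kept accessory subunits of potassium channels, Kcnmb1 fell and 4 did not pass. Kcnmb1, which tunes the large-conductance calcium-activated channel of smooth muscle, had 7, 9 and 10 counts with Sardomozide against 23, 39 and 10 with DMSO. It was 1 of 3 genes that reached 10 counts in 3 libraries only through the DMSO libraries, and DMSO replicate 3 lay just above the Sardomozide range in CPM (log2 fold change −1.66 ± 0.52, adjusted p = 0.0319). The call was lost without any library other than DMSO replicate 3 (adjusted p = 0.0603 to 0.225) and with limma-voom (0.0722). Kcnma1, the pore subunit that Kcnmb1 serves, was not kept, with 3, 7 and 22 counts with Sardomozide and 2, 3 and 5 with DMSO. Kcnab3 and Kcnab2, beta subunits of voltage-gated channels, did not pass (log2 fold changes 0.19 ± 0.14 and 0.25 ± 0.24).

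Sodium channel alpha subunits form the pore that carries the upstroke of the action potential. Scn4a, on chromosome 11 from 106318592 to 106353288, fell by 9.53% to 117, 109 and 118 CPM with Sardomozide against 124, 126 and 130 CPM with DMSO. Its groups did not overlap (log2 fold change −0.14 ± 0.045, adjusted p = 0.0334). The call was lost without Sardomozide replicate 2 and without any 1 of the DMSO libraries (adjusted p = 0.0632 to 0.148 over these fits).

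Scn7a, a sodium-sensing relative that does not open with voltage, had 8.36, 9.26 and 11.3 CPM with Sardomozide and 16.2, 11.3 and 15.6 CPM with DMSO. DMSO replicate 2 met Sardomozide replicate 3, which made this the 1 called gene whose groups overlapped (log2 fold change −0.57 ± 0.14, adjusted p = 0.0111). The call was lost without DMSO replicate 1 or 3 (adjusted p = 0.0637 and 0.0585). Scn10a and Scn3a, known from sensory and central neurons, did not pass (−0.13 ± 0.11 and −0.46 ± 0.27).

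Beta subunits bind the alpha subunit and shape its gating and surface level. Scn3b fell on few reads, with 31, 14 and 10 counts with Sardomozide and 31, 51 and 62 with DMSO. The equal raw counts of Sardomozide replicate 1 and DMSO replicate 1 correspond to 0.850 and 1.22 CPM because the library totals differ, and the groups did not overlap in CPM (log2 fold change −1.61 ± 0.39, adjusted p = 0.00705). The call was lost without DMSO replicate 3 (adjusted p = 0.0529). Scn3b, like Scn3a, is best known from neurons. The 8 neuronal markers listed summed to 25.2 to 28.2 CPM with Sardomozide and 44.6 to 59.0 CPM with DMSO, nearly all of it Tubb3 and Stmn2, which fell, and Nefl, which did not pass (adjusted p = 0.0563), while Rbfox3, Snap25 and Elavl4 had 0 counts throughout. Their part in these results was not tested.

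**Figure D4:**
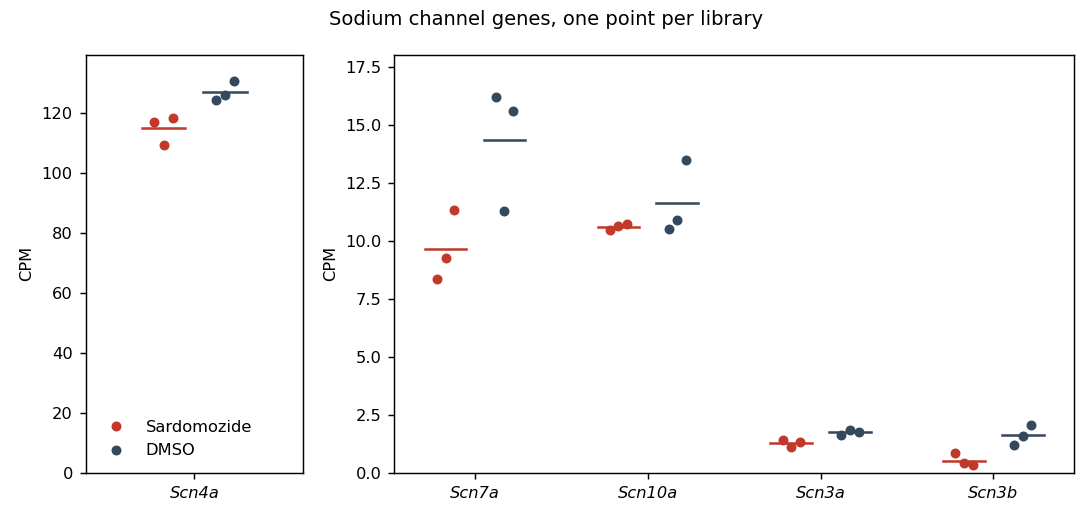
CPM of 5 kept sodium channel genes, with Scn4a on the left panel and Scn7a, Scn10a, Scn3a and Scn3b on a finer scale on the right, 1 point per library and a bar at each group's mean, Sardomozide left of DMSO. Scn4a is at 109 to 118 CPM with Sardomozide and 124 to 130 with DMSO, and the Scn7a groups meet at 11.3 CPM.

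None of the 7 kept CLC genes passed the test, beside 16.3% of all genes tested. Clcn1, the main chloride channel of adult muscle and the gene of myotonia congenita, was scarce, at 1.18, 0.876 and 1.12 CPM with Sardomozide and 1.34, 1.81 and 1.24 CPM with DMSO. Every Sardomozide library was below every DMSO library (log2 fold change −0.47 ± 0.31, 95% interval −1.11 to 0.18, adjusted p = 0.334). Clcn2, a widely expressed surface channel, overlapped between the groups (−0.07 ± 0.12). Of the chloride-proton exchangers of endosomes and lysosomes, Clcn3 was near Clcn2 in level per length (1.65 CPM per kb with Sardomozide, 1.76 with DMSO) and the other 4 were higher. Clcn7, the lysosomal exchanger, had 62.1, 58.7 and 61.3 CPM with Sardomozide and 59.8, 65.0 and 62.5 CPM with DMSO, and Clcn4-2, the symbol used here for Clcn4, had 71.3, 74.6 and 73.5 CPM with Sardomozide and 81.3, 76.3 and 78.5 CPM with DMSO. Clcn7 overlapped between the groups and Clcn4-2 did not. The intervals of their log2 fold changes ran from −0.15 to 0.07 for Clcn7 and from −0.21 to −0.00 for Clcn4-2 (adjusted p = 0.66 and 0.157).

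Anoctamins are calcium-activated chloride channels or lipid scramblases. Of 5 kept genes Ano6 fell and 4 did not pass. Ano6, the scramblase that exposes phosphatidylserine (chromosome 15, 95790843 to 95974751), stood at 185 CPM in each of the 3 Sardomozide libraries against 216, 207 and 201 CPM in the DMSO libraries. Ano6 fell by 11.1%, with no overlap (log2 fold change −0.17 ± 0.042, adjusted p = 0.00805), and the call was lost without DMSO replicate 1 (adjusted p = 0.0651). Ano5, mutated in a limb-girdle muscular dystrophy, had 85.1, 79.7 and 96.8 CPM with Sardomozide and 82.1, 102 and 79.0 CPM with DMSO, overlapping widely (−0.01 ± 0.12). Ano8 did not pass (−0.13 ± 0.054, adjusted p = 0.0997) except without Sardomozide replicate 3 (0.0354), and Ano10 and Ano1 had log2 fold changes of 0.03 ± 0.056 and −0.43 ± 0.2.

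The 2 kept bestrophin genes, of calcium-activated chloride channels, changed in opposite directions. Best3 (chromosome 10, 116986314 to 117025040) had 4.33, 5.37 and 5.41 CPM with Sardomozide and 11.6, 11.6 and 10.9 CPM with DMSO. It fell by 55.8%, with the smallest adjusted p of all kept genes (log2 fold change −1.18 ± 0.13, adjusted p = 2.38e-06). The groups lay far apart relative to the spread in either. Best1 (chromosome 19, 9985174 to 10001633), known from the retinal pigment epithelium, had 13.3, 12.2 and 12.3 CPM with Sardomozide and 8.85, 10.4 and 9.53 CPM with DMSO. Its groups did not overlap (log2 fold change 0.39 ± 0.11, adjusted p = 0.0154), but the call was lost without Sardomozide replicate 1 or DMSO replicate 1 or 3 (adjusted p = 0.0526, 0.0783 and 0.0504). Per length, Best1 stood at 4.88 CPM per kb with Sardomozide and 3.72 with DMSO and Best3 at 1.85 with Sardomozide and 4.18 with DMSO, so the order of the 2 levels differed between the groups.

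No TRP channel gene passed the test among 9 kept, beside 16.3% of all genes tested. Trpm7, a channel fused to a kinase and a route for magnesium, was the most abundant, at 94.2, 102 and 95 CPM with Sardomozide and 93.5, 89.3 and 90.4 CPM with DMSO. The groups did not overlap by a narrow margin (log2 fold change 0.09 ± 0.048, 95% interval −0.01 to 0.19, adjusted p = 0.203). Trpm4, a calcium-activated channel for monovalent cations, had log2 fold change −0.09 ± 0.074, Trpv2 had −0.08 ± 0.13 and Trpc1 had −0.14 ± 0.27. Trpv3, known from skin, had 73, 23 and 51 counts with Sardomozide and 17, 30 and 14 with DMSO, with Sardomozide replicate 2 inside the DMSO range. It did not pass (log2 fold change 1.04 ± 0.41, adjusted p = 0.0867) except without Sardomozide replicate 2 (0.0149) and with no filter (0.0307). Of 7 Trpc genes, 1 was kept and 5 had no count at all.

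Piezo1 fell by 8.66%, to 222, 229 and 224 CPM with Sardomozide against 248, 246 and 245 CPM with DMSO. The groups were clear of each other on a small difference (log2 fold change −0.13 ± 0.04, adjusted p = 0.0294). Its call was lost in the fits without Sardomozide replicate 1 or 3 or any DMSO library (adjusted p = 0.0536 to 0.104). Exons of genes on the other strand, Ctu2 above all, cover 24.6% of its exon length, and the sources used here do not say whether reads were counted by strand. Piezo2, the channel of touch neurons, had 69.0, 72.7 and 69.9 CPM with Sardomozide and 87.0, 73.9 and 76.4 CPM with DMSO. It did not pass (−0.16 ± 0.058, adjusted p = 0.0577), and passed without DMSO replicate 2 (0.0311) and with no filter (0.0266).

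**Figure D5:**
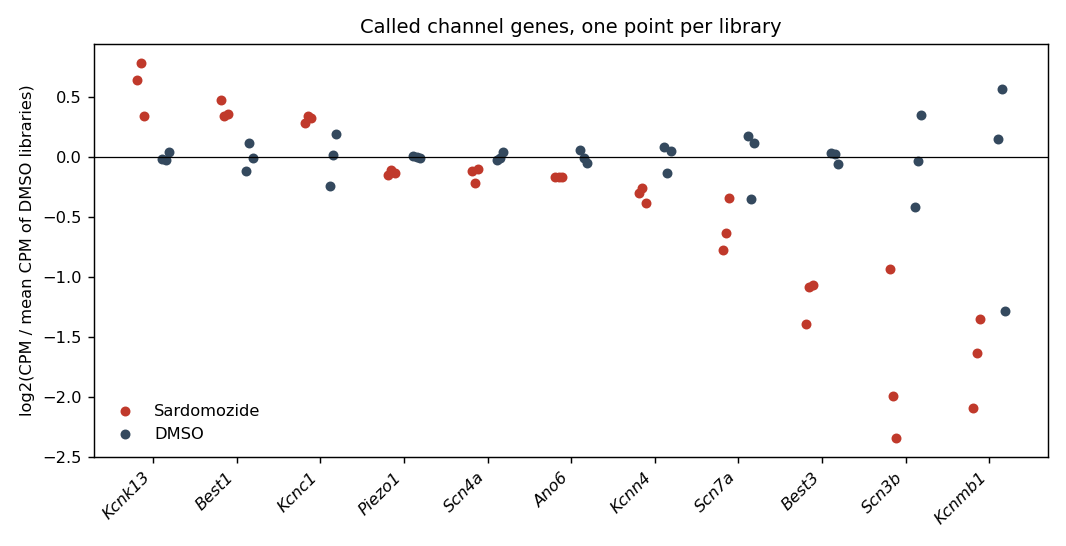
Log2 of CPM over the mean CPM of the DMSO libraries (vertical axis) for 11 of the 14 called genes, ordered by fold change, 1 point per library, Sardomozide left of DMSO. Piezo1, Scn4a and Ano6 are apart by little with tight groups, whereas Scn3b and Kcnmb1 are apart by more with wide ones.

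Besides Trpc4ap, Kcnq1ot1 matched by name only. This long noncoding RNA, which silences imprinted neighbours from within Kcnq1, had 59, 146 and 43 counts with Sardomozide and 36, 28 and 52 with DMSO. Sardomozide replicate 2 stood apart, at 4.26 CPM, and the same library had 4043 CPM of the giant muscle transcript Ttn, against 1372 to 1745 CPM in the other 5. Neither gene passed (adjusted p = 0.225 and 0.588). Kcnq1 itself had log2 fold change 0.19 ± 0.34.

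Genes that partner or regulate channels moved in both directions. Of 36 listed, 27 were tested, of which 4 rose, 6 fell and 17 did not pass (median log2 fold change −0.02). Of those tested, 14.8% rose and 22.2% fell, 37% in all, beside 7.88%, 8.45% and 16.3% of all genes tested. The list was chosen with earlier results of these data known, so nothing particular to it is read from these shares. Abcc9, whose product is the regulatory subunit of the ATP-sensitive channel of muscle around the Kcnj11 pore, fell to 0.658, 1.26 and 1.89 CPM with Sardomozide against 4.05, 3.27 and 2.08 CPM with DMSO. Sardomozide replicate 3 and DMSO replicate 3 nearly met (log2 fold change −1.31 ± 0.33, adjusted p = 0.0129). Abcc8, the alternative subunit best known from pancreatic beta cells, had 1.34, 0.526 and 1.57 CPM with Sardomozide and 0.118, 0.840 and 0.436 CPM with DMSO and did not pass (adjusted p = 0.123). Stim1, Cav3, Nedd4l and Lrrc26 also fell, with log2 fold changes of −0.37, −0.34, −0.21 and −1.47, and Amigo1, Fgf11, Sgk1 and Akap9 rose by 0.17 to 0.22 on the log2 scale.

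Of 55 listed ion channel genes outside the name stems, 37 were tested, of which 3 rose, 7 fell and 27 did not pass (median log2 fold change −0.08). Of those tested, 8.11% rose and 18.9% fell, 27% in all, beside 7.88%, 8.45% and 16.3% of all genes tested. The same limit applies to this list. Tmem38b, a potassium channel of the sarcoplasmic reticulum, rose to 161, 157 and 155 CPM with Sardomozide against 107, 117 and 121 CPM with DMSO, well clear of the DMSO range (log2 fold change 0.45 ± 0.048, adjusted p = 1.81e-06). Its relative Tmem38a was more abundant, at 356, 371 and 383 CPM with Sardomozide and 337, 364 and 363 CPM with DMSO. The Tmem38a groups overlapped, and it did not pass (0.06 ± 0.045, adjusted p = 0.393). Tmc7 rose (1.21 ± 0.25). Lrrc8b and Lrrc8d, subunits of the volume-regulated anion channel, fell by 0.53 and 0.46 on the log2 scale. Lrrc8a, another of its subunits and higher in level, did not pass (−0.06 ± 0.053, adjusted p = 0.458). Nor did Lrrc8c and Lrrc8e (adjusted p = 0.0517 and 0.415). Cacna1s, the voltage sensor of excitation-contraction coupling, had 384, 345 and 384 CPM with Sardomozide and 464, 486 and 485 CPM with DMSO, a fall without overlap (−0.37 ± 0.047). The listed genes of its accessory subunits did not move together. Cacng1 fell (−0.15 ± 0.041), Cacnb1 rose (0.17 ± 0.052) and Cacna2d1 did not pass (0.03 ± 0.041).

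Library totals ran from 30820423 to 36709804 counts with Sardomozide and from 25496323 to 32108033 with DMSO, and where no read was counted the upper limit of 3 counts equals 0.0823 to 0.118 CPM by library. The 9 myotube markers analysed (Mymk was not analysed here) were abundant in all libraries, with summed levels of 17240 to 20249 CPM with Sardomozide and 17392 to 18550 CPM with DMSO; Myog rose, Myh8 fell and 7 did not pass. The sum of 8 markers of undifferentiated or cycling myoblasts was 387 to 425 CPM with Sardomozide and 361 to 383 CPM with DMSO, with Mki67 called higher. Of 7 endothelial markers Emcn was at 0 and the sums were 2.21 to 2.85 CPM with Sardomozide and 2.56 to 3.66 CPM with DMSO; of 7 adipocyte markers 5 were at 0, with sums of 4.33 to 4.56 CPM with Sardomozide and 3.52 to 3.78 CPM with DMSO, nearly all Pparg. Smooth muscle markers summed to 6046 to 6256 CPM with Sardomozide and 6065 to 6389 CPM with DMSO, almost all of it Acta2 and Des, which C2C12 myotubes also make, with Myh11 at 0.165 to 0.302 CPM and Smtn lower. Osteoblast markers summed to 73.4 to 75.1 CPM with Sardomozide and 74.0 to 77.8 CPM with DMSO, with Ibsp at 0. Most of this was Runx2 (mean 49.3 CPM with Sardomozide, 52.9 with DMSO) and Dmp1 (17.3 and 19.5), both lower without passing. Bglap2 (mean 6.74 CPM with Sardomozide, 2.56 with DMSO) and Bglap were called higher. Bglap had few reads, with 12, 14 and 14 counts with Sardomozide and 1, 4 and 1 with DMSO. It entered the test only through the Sardomozide libraries, so its inclusion favoured a rise. The part of any of these marker lists in the channel results was not tested.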

How the data were processed

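RNA of C2C12 myotubes was measured by sequencing in 6 libraries, 3 of each group, grouped by their labels. The authors deposited raw read counts per gene symbol, 1 table per library. Per the submitters' processing notes, STAR, StringTie and DESeq2 and the builds GRCm38 and mm10 were used; their versions and roles, the annotation and the strand setting are not stated, so overlapping or similar genes can share reads.

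All 6 libraries entered 1 fit in edgeR 4.0.16 (R 4.3.3): filterByExpr with a minimum count of 10 and a minimum total of 15, TMM factors, treatment as the single term, robust dispersion and a two-sided quasi-likelihood test. The Benjamini-Hochberg adjustment ran across all 13076 genes, and an adjusted p under 0.05 was called. CPM uses TMM-scaled library sizes. Errors are SD for levels and SE for log2 fold changes. The steps were tested on simulated data.

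Some genes that the rule names are not reported here or drawn, though all are in the counts. The rule named all kept inward rectifiers, all called genes, the 2 highest of each class by level per length, genes at the edge of the count filter, and called genes with large changes from the 2 related lists. Kcnma1, Kcnc2, Clcn3, Kcnj8, Ano5, Ano10, Ano1, Scn10a, Scn3a, Kcnq1, Abcc8, Lrrc8a, Lrrc8c, Lrrc8e, Tmem38a, Cacng1, Cacnb1 and Cacna2d1 were added after their values were seen. The members and lists were chosen with earlier results of these data known. Clcn4-2 was put with the exchangers by hand. All 64 kept symbols matched GENCODE M21, Clcn4-2 through a RefSeq synonym; Kcnj12 starts further upstream there than in RefSeq.

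Alternatives were DESeq2 1.42.0, limma-voom (limma 3.58.1), scaling by RLE, by the upper quartile or not at all, 3 other filters, no robust estimation, a threshold of 0.01, the replicate number as a block, and leaving out each library. Replicates of a group differed by more than sampling noise (chi-square per degree of freedom 5.45 to 16.1). The largest values, 16.1 and 13.1, were those of the pairs with Sardomozide replicate 2. All libraries were kept.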

Additional observations from a re-analysis of the deposited data

How the results depend on the processing

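The scaling factors, DESeq2, limma-voom, the filters and the robustness setting each left the counts of channel genes that rose and fell within 1.5 times of 5 and 9. Same-numbered libraries did not deviate together (correlations 0.0219, −0.0233 and −0.0178, and not every library correlated best with its own number), so the numbers were not taken as pairs; with them as a replicate block, 5 rose and 5 fell, without Kcnn4, Kcnmb1, Scn4a and Piezo1 (adjusted p = 0.0522, 0.0533, 0.0536 and 0.065). At an adjusted p under 0.01, 3 rose and 4 fell. Leaving out each library gave 3 to 7 that rose and 3 to 9 that fell, with the fewest without DMSO replicate 1; these fits hold 5 libraries in place of 6, and calls over all genes numbered 1326 to 1952, beside 2135 with all libraries. All 14 called genes kept their sign in every alternative run in which they were tested, and 5 kept their call in each, Kcnk13 and Best3 among them.

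Among named channel genes that did not pass, the sign turned where a library was left out for Kcnn1 (−0.05 to 0.05 over the 6 fits), Kcnn3 (−0.06 to 0.01), Kcnc2 (−0.22 to 0.01), Clcn2 (−0.18 to 0.06), Ano5 (−0.09 to 0.11), Ano10 (−0.01 to 0.08), Trpc1 (−0.32 to 0.06) and Trpv2 (−0.18 to 0.02), and with the filter of 50 counts for Kcnn1 (−0.0017). The cause was not tested. The intervals of Kcnj16, Kcnh3, Kcnab1, Trpm3 and Trpv3, all with few counts, each span more than 1.5 on the log2 scale. So do those of the called genes Kcnmb1 (−2.75 to −0.58) and Scn3b (−2.42 to −0.80). Kcnab1 had 0, 26 and 3 counts with Sardomozide and 23, 4 and 21 with DMSO. Its estimate was −0.97 with all libraries and −3.54 without Sardomozide replicate 2.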
